A study of Rattus norvegicus with 8 samples.

Results

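The genes described here encode the proteins of the mitochondrial ribosome, read by RNA sequencing in the rat neurohypophysis at 35 and 125 days of age. A gene was counted as a member when its symbol was Mrpl or Mrps followed by a number and at most 1 letter, and when its value reached 10 in at least 4 of the 8 libraries. Of 33294 listed genes, 76 symbols fitted and 73 were members, 44 with Mrpl and 29 with Mrps symbols, named for the large and the small subunit. The tissue came from male Sprague Dawley rats, 4 libraries at 35 days, the age labelled as the control, and 4 at 125 days. The animals were perfused with PBS under isoflurane, and poly(A)-selected libraries were made from the frozen neural lobe with no other treatment. The study asked which transcripts of this tissue change with age. The labels do not say whether each library came from its own rat, so p-values here measure the spread between libraries.

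Mitochondria carry their own ribosomes, which translate only the few proteins encoded by mitochondrial DNA, all of them core subunits of the respiratory chain and ATP synthase. The ribosomal RNAs are transcribed in the organelle, whereas all the proteins of this ribosome are encoded in the nucleus, made in the cytosol and imported. Some of them descend from bacterial ribosomal proteins, and the others were added during the evolution of mitochondria. The neurohypophysis holds axon terminals of vasopressin and oxytocin neurons, whose cell bodies lie in the hypothalamus, together with glia-like pituicytes and vessels.

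Of the 3 symbols left out by their low values, Mrpl28 and Mrpl53 were listed at 0 in all 8 libraries. Mrps21l, at most 1.26 depth-normalized counts in any library, was the highest of those left out, far below the limit. The lowest member was Mrpl43, a protein of the mitochondrial large subunit without a bacterial counterpart, at 141, 179, 264 and 156 in 35-day replicates 1 to 4 and at 175, 158, 208 and 171 in 125-day replicates 1 to 4. No member therefore lay near the limit, and all 73 were measured in every library. A further 3 large-subunit genes are listed with lower-case symbols and fall outside the rule. Their log2 changes, as 125 minus 35 days, were -0.07 for mrpl11 (adjusted p = 0.809), 0.06 for mrpl24 (adjusted p = 0.708) and 0.03 for mrpl9 (adjusted p = 0.907), by limma with Benjamini-Hochberg adjustment over 17919 genes.

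Read totals ran from 28429133 to 58696254 per library. Markers of the neural lobe were present, with each of 8 fixed genes, among them Avp, Oxt and the pituicyte gene Rax, at 868.5 or more in every library. Transcripts of neighbouring tissue were present as well. Pomc, the melanotrope prohormone of the intermediate lobe, took 5.65% to 14.3% of reads. The summed level of 8 anterior lobe markers, such as Gh1 and Prl, was 1391592 in 35-day replicate 3 against 6424 to 226449 in the other 7 libraries, and all 8 were highest in that library. Replicate 3 therefore stands apart, and results are given with and without it. In bulk tissue, fewer cells of a type and less RNA per cell cannot be told apart.

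With all 8 libraries, none of the 73 members passed at an adjusted p of 0.05 (limma on log2(value + 1), Benjamini-Hochberg over all 17919 genes), against a background of 17.7% of all genes tested. At an unadjusted p under 0.05, 6 members passed, 1 higher and 5 lower at 125 days, where the background was 31.6%. The median log2 change of the members was -0.08, beside 0.0072 over all genes tested, with 13 members above 0 and 60 below. Changes ran from -0.45 for Mrpl18 to 0.26 for Mrpl3. The 95% confidence interval of the change lay within 2-fold in either direction for all 73 members and within 1.5-fold for 55. The counts by other tools were 0 members by edgeR and 2 lower members by DESeq2, Mrpl18 (log2 change -0.49, adjusted p = 0.0413) and Mrps17 (-0.42, adjusted p = 0.0349), against backgrounds of 17.7% and 23.4% (12.3% lower). The anterior lobe covariate left 0 members, with a background of 15.6%. Scaling by total reads gave 2 lower members, Mrpl18 and Mrps17, beside 17.5% of all genes in either direction and 11% lower. Weighting libraries by their fit to the rest, which gave 35-day replicate 3 a weight of 0.1, gave 12 members, 7 higher and 5 lower, beside 44% of all genes, 22.2% higher and 21.9% lower.

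**Figure D1:**
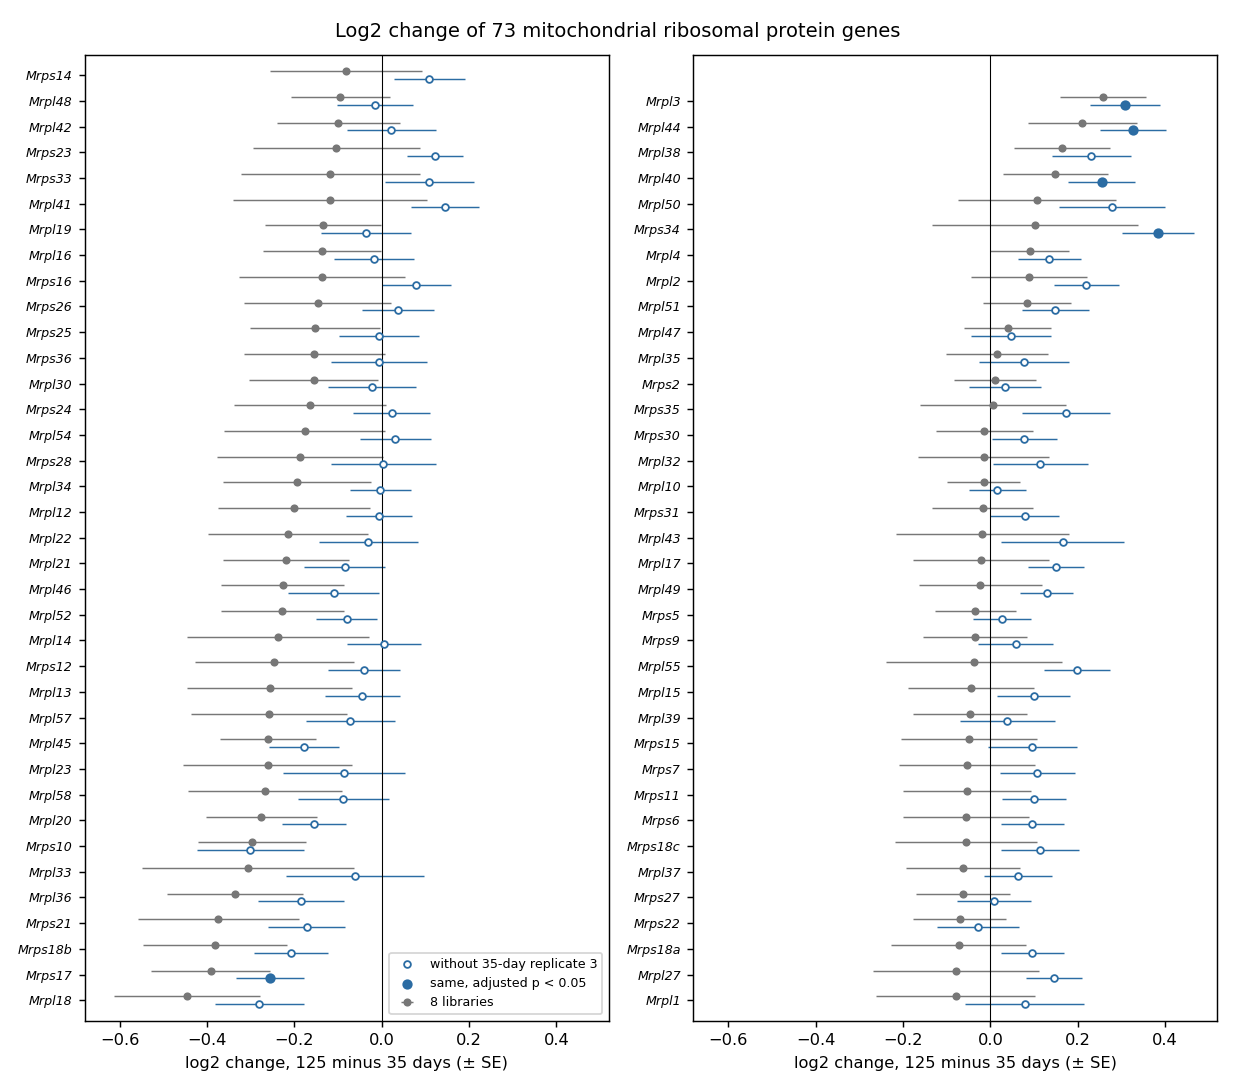
Log2 change in depth-normalized counts (125 minus 35 days) with its standard error for each of the 73 members, in grey with all 8 libraries and in blue without 35-day replicate 3. None of the grey points passed at an adjusted p of 0.05, and the 5 filled blue points did.

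The ordering of the lowest p-values was led by members that were lower at 125 days. Mrps17, a homolog of a bacterial small-subunit protein that binds ribosomal RNA, was at 1240.5, 1147, 1653 and 1033 in 35-day replicates 1 to 4 and at 995, 932, 924 and 956 in 125-day replicates 1 to 4. Every 35-day library was above every 125-day library for this gene, and the log2 change was -0.39 (SE 0.14, adjusted p = 0.0773 by limma). Mrpl18, a large-subunit protein with a bacterial homolog, was at 1154, 1084, 1620.3 and 858 in 35-day replicates 1 to 4 and at 829, 890.4, 813 and 842 in 125-day replicates 1 to 4. Here the groups overlapped through 35-day replicate 4, and the log2 change was -0.45 (SE 0.17, adjusted p = 0.0958). The only other member without overlap was Mrpl20, named after its values were seen, whose bacterial homolog takes part in early large-subunit assembly in Escherichia coli, at 1481, 1289.6, 1882 and 1276 in 35-day replicates 1 to 4 and at 1162, 1184, 1232 and 1260.1 in 125-day replicates 1 to 4. Its adjusted p was 0.168 for a log2 change of -0.28. Non-overlapping ages were thus found in 2 of 73 members, 2.74%, against a background of 24.9% of all genes tested.

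Others among the lowest changes were Mrps18b, 1 of 3 mammalian genes of the S18 family, with 1130.4 ± 310.4 at 35 days and 847 ± 68.7 at 125 days (SD, n = 4 each) and a log2 change of -0.38 (adjusted p = 0.142). Mrps21, a small-subunit protein with a bacterial homolog, had 1493 ± 483 at 35 days and 1114 ± 66.7 at 125 days (SD, n = 4 each) (log2 change -0.37, adjusted p = 0.196). In Mrpl36, a short protein of the large subunit, the levels were 668 ± 163 at 35 days and 519 ± 30.7 at 125 days (SD, n = 4 each) (log2 change -0.34, adjusted p = 0.174). The 35-day SD exceeded the 125-day SD in each of these genes. Mrpl33, another small large-subunit protein, had 441 ± 182 at 35 days and 337 ± 35.3 at 125 days (SD, n = 4 each), a log2 change of -0.31 and an adjusted p of 0.429.

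At the other end, Mrpl3, a conserved large-subunit protein whose bacterial homolog lies close to the peptidyl transferase centre, was at 1698, 1599.7, 1851 and 1548 in 35-day replicates 1 to 4 and at 2136, 1798, 1908 and 2176 in 125-day replicates 1 to 4. Its 125-day libraries were higher on average but overlapped the 35-day group through 35-day replicate 3 (log2 change 0.26, SE 0.10, adjusted p = 0.0999). Mrpl44, which carries a fold related to RNase III, was at 642, 689, 952 and 749.6 in 35-day replicates 1 to 4 and at 862, 874, 856 and 879 in 125-day replicates 1 to 4. The 125-day libraries of Mrpl44 lay within a narrow band, below 35-day replicate 3 and above the other 35-day libraries, and the change was 0.21 (SE 0.12, adjusted p = 0.279). For Mrps34, a small-subunit protein found in mitochondria and not in bacteria, the counts were 756, 757, 1697 and 817 in 35-day replicates 1 to 4 and 1052, 919.7, 985 and 1105 in 125-day replicates 1 to 4. With 8 libraries its change was only 0.10 (SE 0.24, adjusted p = 0.809), and its 35-day values spanned the whole 125-day range.

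The remaining genes among the 6 most positive changes were Mrpl38, Mrpl40 and Mrpl50, all of them mitochondria-specific large-subunit proteins. Mrpl40 was at 553, 530.1, 722 and 530.0 in 35-day replicates 1 to 4 and at 632, 601, 673 and 663 in 125-day replicates 1 to 4. As in Mrps34, replicate 3 was above and the other 35-day libraries were below all 125-day libraries, and the log2 change was 0.15 (SE 0.12, adjusted p = 0.438). Mrpl38 had 699 ± 81.9 at 35 days and 781 ± 55.9 at 125 days (SD, n = 4 each) (log2 change 0.16, adjusted p = 0.342), and Mrpl50 had 713 ± 208 at 35 days and 746 ± 46.3 at 125 days (SD, n = 4 each) (log2 change 0.11, adjusted p = 0.731).

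**Figure D2:**
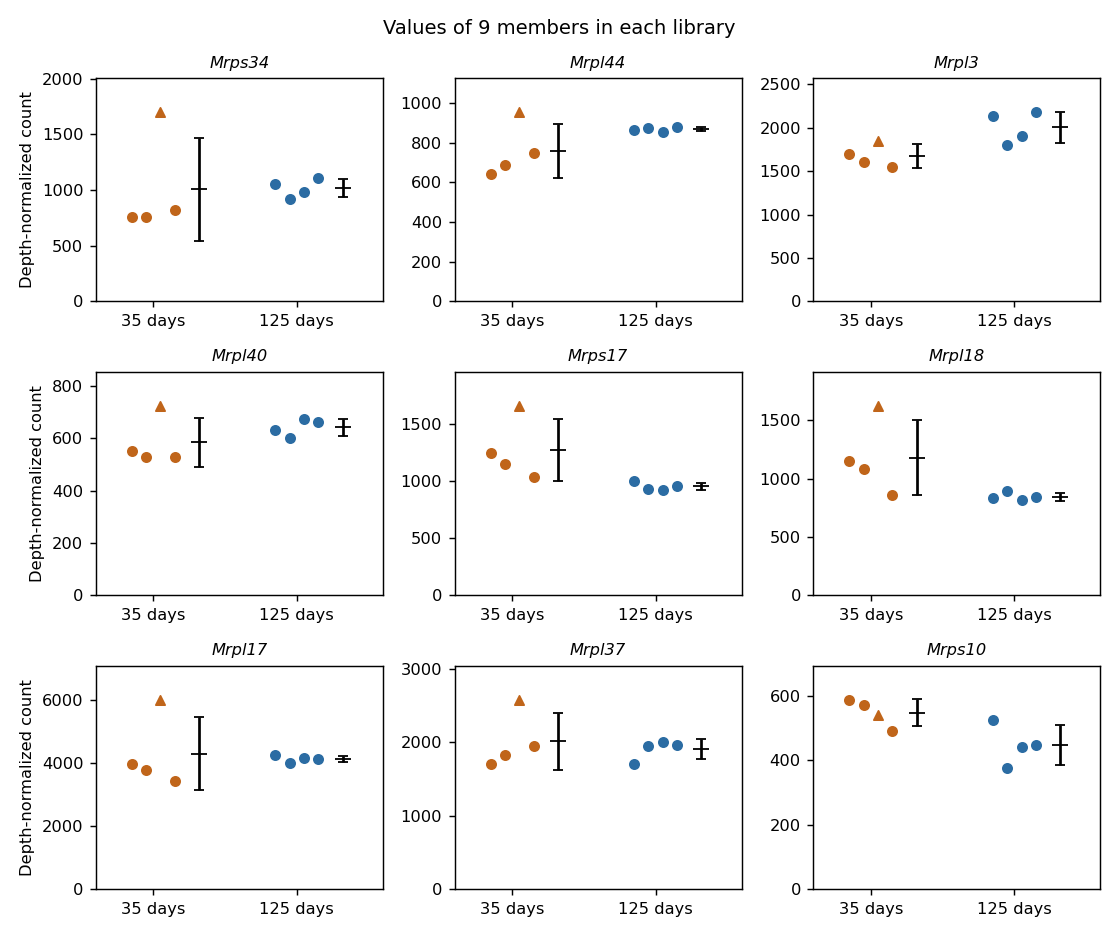
Depth-normalized counts of 9 members in each library, with 35-day libraries in orange and 125-day libraries in blue. The triangle is 35-day replicate 3, and the bars give the mean ± SD of 4 libraries per age. In Mrps34, Mrpl44 and Mrpl40 the triangle lies above and the other 35-day points lie below all 125-day points.

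The family was high together in 35-day replicate 3. That library was the highest of 8 in 66 of 73 members, 90.4%, against a background of 29% of all genes tested, and the highest of the 35-day libraries in 71, where the background was 38.7%. Members took 0.271% of its reads and 0.185% to 0.200% in the other 7 libraries. The level over the mean of the other 3 35-day libraries had a median of 1.52 across members and ran from 0.986 in Mrps10 to 2.18 in Mrps34. It was at least 1.5 in 38 members, at least 1.2 in 62, where the background was 31.1%, and under 1.2 in 11. Against the mean of each gene over the 8 libraries, the median log2 deviation of the members was 0.51 in replicate 3, 0.02, -0.11 and -0.17 in 35-day replicates 1, 2 and 4, and between -0.12 and -0.02 in the 125-day libraries. The high level of anterior lobe markers in the same library stands beside this, and its part in the member levels was not tested.

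**Figure D3:**
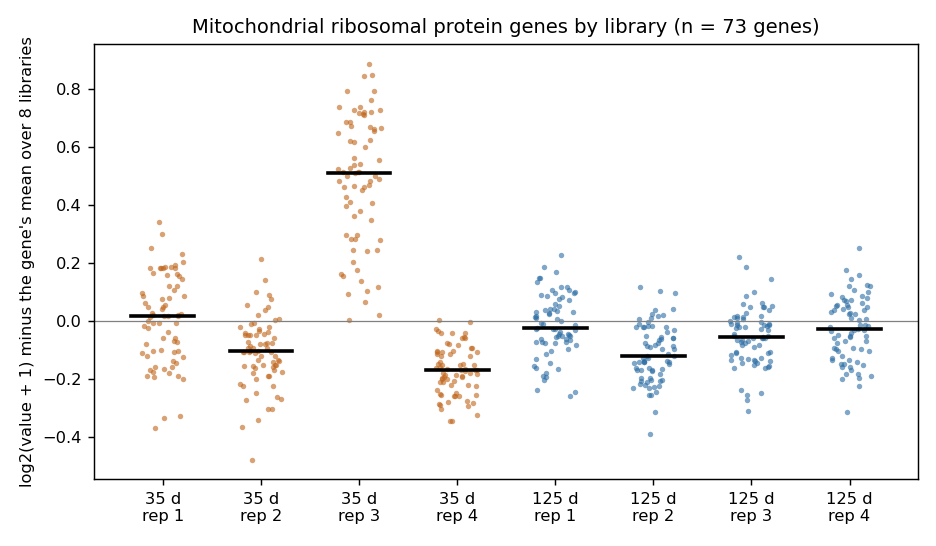
Each point is 1 of 73 members in 1 library, as log2(value + 1) minus the mean of that gene over the 8 libraries, and the black line is the median. The median lies at 0.51 in 35-day replicate 3 and between -0.17 and 0.02 in the other 7 libraries.

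The 7 members for which another library was highest were Mrps10, Mrps2, Mrpl3, Mrpl4, Mrpl38, Mrpl47 and Mrpl51, listed after their values were seen. Mrps10, a small-subunit protein of the head domain with a bacterial homolog, was at 587, 570.4, 542 and 490.5 in 35-day replicates 1 to 4 and at 526, 375, 440.0 and 448 in 125-day replicates 1 to 4. Its replicate 3 value sat inside the range of the other 35-day libraries. Mrpl47, related to a bacterial protein beside the peptide exit tunnel, was 1.02 times the mean of the other 35-day libraries there, and Mrps2 was 1.06 times that mean. By contrast the fold was 2.07 in Mrpl41, 1.95 in Mrpl14 and 1.94 in Mrpl33. The fold of that library thus differed between members.

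Among the members read at the highest count, Mrpl17, a large-subunit protein with a bacterial homolog, was at 3950.2, 3787, 5995 and 3433 in 35-day replicates 1 to 4 and at 4246, 4001, 4142 and 4116 in 125-day replicates 1 to 4. Mrpl37, a mitochondria-specific large-subunit protein, was at 1702, 1822, 2575 and 1947 in 35-day replicates 1 to 4 and at 1704, 1955, 2008 and 1955 in 125-day replicates 1 to 4. Mrpl52, another mitochondria-specific protein of the large subunit, was at 1937, 1907, 2819 and 1779.6 in 35-day replicates 1 to 4 and at 1950.3, 1699, 1711 and 1737 in 125-day replicates 1 to 4. In all 3 genes replicate 3 was the highest of 8 libraries, and log2 changes with age were -0.02, -0.06 and -0.23 (adjusted p = 0.941, 0.787 and 0.305). Of the members read at the lowest count, Mrpl43, Mrpl21 and Mrps28 had log2 changes of -0.02, -0.22 and -0.19 (adjusted p = 0.963, 0.332 and 0.544). Counts were not divided by transcript length, so they do not order the genes by transcript number.

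The spread among the 35-day libraries was smaller without that library. The median coefficient of variation of the members was 23.3% over the 4 libraries of 35 days, beside 18.1% for all genes tested. It was 8.53% without replicate 3, beside 9.54% for all genes. At 125 days it was 5.99%, beside 9.74%. Summed over the 73 members, depth-normalized counts were 73796 ± 16853 (SD, n = 4) at 35 days, 65524 ± 3943 (SD, n = 3) without replicate 3 and 67643 ± 1928 (SD, n = 4) at 125 days.

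Symbols do not give the subunit of every member. Mrps30 and Mrps18a are proteins of the large subunit, and Mrps36, described in mammals as a subunit of the 2-oxoglutarate dehydrogenase complex, was put in neither. Of the others, 46 belong to the large and 26 to the small subunit. The ratio of summed large-subunit to summed small-subunit counts was 1.942, 1.914, 1.833 and 1.892 in 35-day replicates 1 to 4 and 1.917, 1.941, 1.979 and 1.922 in 125-day replicates 1 to 4. The lowest ratio was that of 35-day replicate 3, and the ages overlapped. The sums are of counts not divided by length, so the ratio says nothing of the stoichiometry of the 2 subunits.

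Without 35-day replicate 3, 5 members passed, 4 higher and 1 lower at 125 days, against backgrounds of 30.7% in either direction, 15.9% higher and 14.8% lower. Against 777 ± 34.7 (SD, n = 3) in the 3 remaining 35-day libraries, Mrps34 rose by 0.38 on the log2 scale (SE 0.08, adjusted p = 0.00686 by limma). In the same fit Mrpl44 rose by 0.33 from 693 ± 54.1 (SD, n = 3) (SE 0.08, adjusted p = 0.00993). Mrpl3 rose by 0.31 from 1615 ± 76.2 (SD, n = 3) (SE 0.08, adjusted p = 0.0178). Mrpl40 rose by 0.26 (SE 0.08, adjusted p = 0.032), and Mrps17 fell, with a log2 change of -0.26 (SE 0.08, adjusted p = 0.0322). None of these 5 genes had overlap between ages once replicate 3 was left out. The share of members that passed was below the background share.

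In this comparison the median log2 change of the members was 0.04, beside 0.0029 over all genes, with 46 members above 0 and 27 below, so the sign of the median turned when the library was left out. Ages did not overlap in 13 members, 11 higher and 2 lower at 125 days, where the background was 38.2%, and 20.3% for higher values at 125 days. The 68 members that did not pass had intervals within 1.5-fold in either direction, as did the 5 that passed. With these 7 libraries edgeR and DESeq2 each called 6 members, these 5 and Mrpl18, against backgrounds of 30.5% and 33.5%. When limma also took the anterior lobe level of each library as a covariate, 2 members were called, both higher, Mrps34 (adjusted p = 0.0151) and Mrpl44 (adjusted p = 0.0262), against backgrounds of 23.9% in either direction and 13% higher. The log2 changes of the other 3 were then 0.33 for Mrpl3 (SE 0.11, adjusted p = 0.0569), 0.28 for Mrpl40 (SE 0.11, adjusted p = 0.0907) and -0.31 for Mrps17 (SE 0.10, adjusted p = 0.0593), no smaller than without the covariate but with larger standard errors. Leaving out any 1 further library gave 2 to 6 members, and Mrps34 and Mrpl44 were called in each of those fits. The count was 2 without 35-day replicate 2 or 125-day replicate 4 and 3 without 125-day replicate 3. The share of all genes called in those fits is not given here. Scaling by total reads in place of size factors gave 9 members, 2 higher and 7 lower (background 31.6%, 10.6% higher and 21% lower), so the balance of directions depends on the scaling, and Mrpl44 then had an adjusted p of 0.0567. Neural lobe markers were at a summed 30625 to 34555 in these 35-day libraries and 20783 to 30272 at 125 days, and of the 8 markers 4 passed as lower and 1 as higher. Erythroid markers were at a summed 6445 to 9179 in the 35-day libraries without replicate 3 and 1500 to 3683 at 125 days, and the Pomc share was 5.65% to 6.78% and 10.1% to 14.3%. Of 5 measured intermediate lobe markers, Pomc among them, 3 had positive and 2 negative log2 changes without replicate 3, and 1 passed, as higher. Their part in the member changes was not tested.

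The members were also grouped by fixed lists of origin. The S18 family was split between these, with Mrps18c listed as a bacterial homolog and Mrps18a and Mrps18b listed as mitochondria-specific. The backgrounds of the fit without replicate 3, 15.9% higher and 14.8% lower, hold for the counts of each class. The 26 large-subunit proteins with bacterial homologs had a median log2 change of -0.14 with 8 libraries and 0.00067 without replicate 3, and 1 of them, Mrpl3, rose in the latter fit. The 20 mitochondria-specific large-subunit proteins had medians of -0.07 and 0.07, and 2 of them rose without replicate 3, Mrpl40 and Mrpl44. Among the 16 small-subunit proteins with bacterial homologs the medians were -0.07 and 0.05, and Mrps17 alone passed, as lower. For the 10 mitochondria-specific small-subunit proteins they were -0.09 and 0.06, and Mrps34 alone passed, as higher. None of the 4 classes held a member that passed with 8 libraries. Replicate 3 was the highest library in 23 of 26, 18 of 20, 14 of 16 and 10 of 10 genes of these classes, where the background was 29%. Mrps36 was in none of them, and its log2 change was -0.15 (adjusted p = 0.556).

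Promoters of the members were compared by short sequence motifs in RefSeq windows of the GRCr8 build, from 250 bases before to 50 bases after each start. Windows matched 58 of the 73 members by symbol, giving 60 windows on 18 chromosomes. The 8-letter motif AAGATGGC, a core of the sites bound by the factor YY1, was found on either strand in 25% of the member windows, beside 4.29% of windows of all genes tested and 3.17% of all windows. There were 15 matches in 15 members, 13 of them on the strand of the gene and 11 after the start. The letters of the motif include ATG, and whether a match covered a start codon was not examined. Matches in the members whose levels are given above are printed 5′ to 3′ on the strand that carries the motif. The motif is in capitals with 10 bases on each side, to show how the letters around it vary.
Mrpl36, chr1:31795120-31795147, on the plus strand, opposite to the gene: gccagaaagaAAGATGGCgtagggtcac
Mrpl37, chr5:127074944-127074971, on the minus strand: tgcccgggcaAAGATGGCggcgtccagg
Mrpl50, chr5:68668044-68668071, on the minus strand: gagcttgtcgAAGATGGCggcgctgtgt
Mrps18b, chr20:2843024-2843051, on the plus strand: gatgtgcgacAAGATGGCtgcctccttg
Mrps10, chr9:21122406-21122433, on the minus strand: tcagggcaccAAGATGGCggcgcgcgca
In 4 of these 5 the motif lay after the annotated start, and in Mrpl36 before it. None of the 5 genes passed with 8 libraries.

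The motif of NRF1 (GCGCA, any base, then GCGC), a factor known for driving nuclear genes of mitochondrial proteins, was in 15% of member windows, beside 7.65% of windows of genes tested. The ETS motif of GABPA (CCGGAAGT), another such factor, was in 11.7% beside 6.24%, and the E-box CACGTG in 10% beside 8.37%. Both strands were searched for each. Of the 5 genes that passed without replicate 3, Mrps34 had no window, Mrpl3 held the ETS motif, and Mrpl40 and Mrps17 held none of the 4 motifs. Mrpl44 carries the NRF1 motif, in capitals in the 250 bases before its start on the plus strand, printed because Mrpl44 was called in each fit that left out 1 further library.
Mrpl44, chr9:88554800-88555049: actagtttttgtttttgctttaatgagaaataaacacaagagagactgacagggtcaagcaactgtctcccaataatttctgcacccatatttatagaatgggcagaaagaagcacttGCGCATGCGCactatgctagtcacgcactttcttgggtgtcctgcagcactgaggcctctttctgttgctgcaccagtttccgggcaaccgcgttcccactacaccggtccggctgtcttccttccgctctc
A match describes letters only, and nothing follows from it for binding.

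Many members share their start region with a gene on the other strand. In 25% of member windows, 15 of 60, a gene on the opposite strand began within 500 bases, beside 12.9% of windows of genes tested. Mrps11 and Mrpl46, a small-subunit and a large-subunit gene, start 234 bases apart, and their log2 changes were -0.05 and -0.23 (adjusted p = 0.84 and 0.308). There were 15 members with such a partner, and in 3 further pairs, named after their values were seen, the partner passed with 8 libraries. The background was 17.7% of all genes tested. No member passed, so the member of any such pair was bound to be one that did not. Gga3, an adaptor of vesicle traffic from the Golgi, starts 269 bases from Mrps7 and rose (log2 change 0.27, adjusted p = 0.0439), where the log2 change of Mrps7 was -0.05 (adjusted p = 0.851). The partners fell in the other pairs. Eme1, a subunit of a DNA repair endonuclease, starts 44 bases from Mrpl27 and was at 39, 36.2, 51.2 and 55.3 in 35-day replicates 1 to 4 and at 18.3, 9.77, 16.4 and 13.7 in 125-day replicates 1 to 4. Every 125-day library of Eme1 was below every 35-day library (log2 change -1.59, SE 0.26, adjusted p = 0.00285), while the log2 change of Mrpl27 was -0.08 (adjusted p = 0.816). Ncapd2, a condensin subunit, starts 50 bases from Mrpl51 and had 915 ± 80.4 at 35 days and 618 ± 33.6 at 125 days (SD, n = 4 each) (log2 change -0.56, adjusted p = 0.00383). The log2 change of Mrpl51 was 0.08 (adjusted p = 0.617). The difference between partners was not tested. The stretches between the starts of the last 2 pairs, on the plus strand, are printed because they are short and lie beside a partner that passed.
Mrpl27 and Eme1, chr10:80092302-80092344: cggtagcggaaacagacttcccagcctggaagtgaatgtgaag
Mrpl51 and Ncapd2, chr4:159677939-159677987: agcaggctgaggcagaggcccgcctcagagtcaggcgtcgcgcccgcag
Another member, Mrpl49, starts 186 bases from Fau, which encodes a cytosolic ribosomal protein fused to a ubiquitin-like one. Their log2 changes were -0.02 and -0.0067 (adjusted p = 0.933 and 0.987), and both were highest in 35-day replicate 3.

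Other proteins of the mitochondrial ribosome that carry different symbols were read from the same fits. Of 5 measured, none passed with 8 libraries by limma (0 at an unadjusted p under 0.05, and 0 by edgeR or DESeq2), and 1 passed without replicate 3, Dap3, a GTP-binding protein of the small subunit, at 1380.4, 1328, 1793 and 1360.3 in 35-day replicates 1 to 4 and at 1821, 1772, 1538 and 1755 in 125-day replicates 1 to 4 (log2 change 0.34, SE 0.07, adjusted p = 0.00672 without replicate 3). Among 29 measured factors that modify ribosomal RNA or assemble the ribosome, 1 passed with 8 libraries. Mrm1, a methyltransferase of the large ribosomal RNA, rose from 488 ± 51.1 at 35 days to 678 ± 46.1 at 125 days (SD, n = 4 each), a log2 change of 0.48 (SE 0.11, adjusted p = 0.0139). All its 125-day libraries were above all its 35-day libraries, as the values 458, 442, 557 and 497 in 35-day replicates 1 to 4 and 741, 631, 679.6 and 661 in 125-day replicates 1 to 4 show. Leaving out 125-day replicate 1 gave an adjusted p of 0.0501. Without 35-day replicate 3, 4 of the 29 passed, all higher, against 15.9% of all genes tested in that direction. With 8 libraries the background was 17.7% in either direction. Both backgrounds also hold for the translation factors and the tRNA synthetase list.

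The list of translation factors, 16 measured genes, also holds other genes, Oxa1l, Letm1, Lrpprc, Slirp and Mtfmt. In this list 1 passed with 8 libraries and 4 without replicate 3, all higher at 125 days. Gfm2, the elongation factor that takes part in splitting the ribosome after termination, was at 1244, 1199.7, 903 and 1346 in 35-day replicates 1 to 4 and at 1652, 1844, 1739.9 and 1602 in 125-day replicates 1 to 4. Its groups did not overlap, and the log2 change was 0.56 (SE 0.13, adjusted p = 0.0141), and it was 0.33 (SE 0.13, adjusted p = 0.128) when the anterior lobe level was a covariate. The other 3 without replicate 3 were Oxa1l, an insertase of the inner membrane, with a log2 change of 0.28 (adjusted p = 0.00479), and the elongation factors Tsfm (0.43, adjusted p = 0.0108) and Tufm (0.31, adjusted p = 0.00358). The list of mitochondrial tRNA synthetases, 19 measured genes, also holds Qrsl1, Gatb and Gatc, which are subunits of a tRNA amidotransferase. In this list Nars2, which charges the tRNA of asparagine, rose from 469 ± 36.5 at 35 days to 607 ± 15.2 at 125 days (SD, n = 4 each) (log2 change 0.37, SE 0.10, adjusted p = 0.0243), and 4 passed without replicate 3, all higher. Nars2 did not pass with scaling by total reads (adjusted p = 0.0647), nor when 35-day replicate 1 or 2 or any single 125-day library was left out (adjusted p from 0.0524 to 0.0758). Of 16 genes for DNA replication, transcription and RNA processing in mitochondria none passed with 8 libraries by limma, and 3 had an unadjusted p under 0.05. By edgeR 0 passed and by DESeq2 1 passed, where the background was 17.7% and 23.4%. The lowest adjusted p by limma was 0.0916 for Elac2, which trims tRNA 3′ ends.

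Among 9 regulators of mitochondrial genes, 2 rose with 8 libraries, against a background of 17.7% of all genes tested in either direction. Ppargc1b and Ppargc1a are transcriptional coactivators known for raising mitochondrial gene expression. Ppargc1a was at 1119, 1193, 660.3 and 931 in 35-day replicates 1 to 4 and at 2052, 1269, 2151 and 1684 in 125-day replicates 1 to 4 (log2 change 0.88, SE 0.21, adjusted p = 0.0188). Ppargc1b rose from 72.9 ± 32.9 at 35 days to 161 ± 24.3 at 125 days (SD, n = 4 each) (log2 change 1.23, SE 0.28, adjusted p = 0.0153). With the anterior lobe covariate neither passed, at log2 changes of 0.74 for Ppargc1a (SE 0.28, adjusted p = 0.104) and 0.89 for Ppargc1b (SE 0.35, adjusted p = 0.121). Without 125-day replicate 1 or 3 the adjusted p of Ppargc1a was 0.0627 or 0.0614, and without 125-day replicate 3 that of Ppargc1b was 0.0527. Without 35-day replicate 3, 4 passed as higher, and Nrf1 (log2 change -0.23, adjusted p = 0.0289) and Gabpb1, a subunit of the GABP factor (-0.32, adjusted p = 0.0489), passed as lower. The backgrounds of that fit were 15.9% higher and 14.8% lower.

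The 13 proteins encoded by mitochondrial DNA, the products of this ribosome, had negative log2 changes in 13 of 13 genes with a median of -0.34, yet none passed by limma. At an unadjusted p under 0.05 there were 3, all lower, where the background was 31.6% in either direction, with 2799 of 17919 genes lower. After adjustment edgeR called 2 and DESeq2 called 4, all lower. The backgrounds were 17.7% by edgeR in either direction, with 1652 of 17919 genes lower, and 12.3% lower by DESeq2. With limma, total scaling gave 2 and library weights gave 11, all lower, against 11% and 21.9% of all genes tested. Without replicate 3 the median was -0.48 and 0 passed by limma. At an unadjusted p under 0.05 there were 5, all lower, beside 3651 of 17919 genes. In that comparison edgeR called 4 and DESeq2 called 8, all lower. The backgrounds of 30.5% and 33.5% are for either direction, and the shares for lower genes alone are not given here. The lowest adjusted p was 0.0515 for ND3, a subunit of respiratory complex I, at 33889, 25649, 33586 and 19039 in 35-day replicates 1 to 4 and at 22299, 14021, 16426 and 17157 in 125-day replicates 1 to 4. Replicate 3 was the highest library in 0 of the 13, where the background was 29% of all genes tested. The 13 transcripts come from 1 circular genome and are cut from long precursors, so they are not independent of each other.

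Transcripts of 2 other large assemblies were highest in the same library as the members. Replicate 3 was the highest of 8 in 74 of 77 nuclear respiratory chain genes, and its level over the other 35-day libraries had a median of 1.72. For 76 cytosolic ribosomal proteins these were 75 of 76 and 1.66. Replicate 3 was the highest library in 16 of 29 assembly factors (55.2%) and 6 of 19 genes of the tRNA synthetase list (31.6%). The background for all of these counts was 29% of all genes tested, and the share of the tRNA synthetase list was near it. With 8 libraries none of the 77 and none of the 76 passed by limma or edgeR, at median log2 changes of -0.12 and -0.01. At an unadjusted p under 0.05 there were 3 and 1, and DESeq2 called 2 and 1, all lower. The backgrounds were 31.6% in either direction for the former, with 2799 of 17919 genes lower, and 12.3% lower for the latter. Without replicate 3, 18 of the 77 and 17 of the 76 passed, all higher at 125 days, against 15.9% of all genes tested. Whether the members differ from these lists was not tested.

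**Figure D4:**
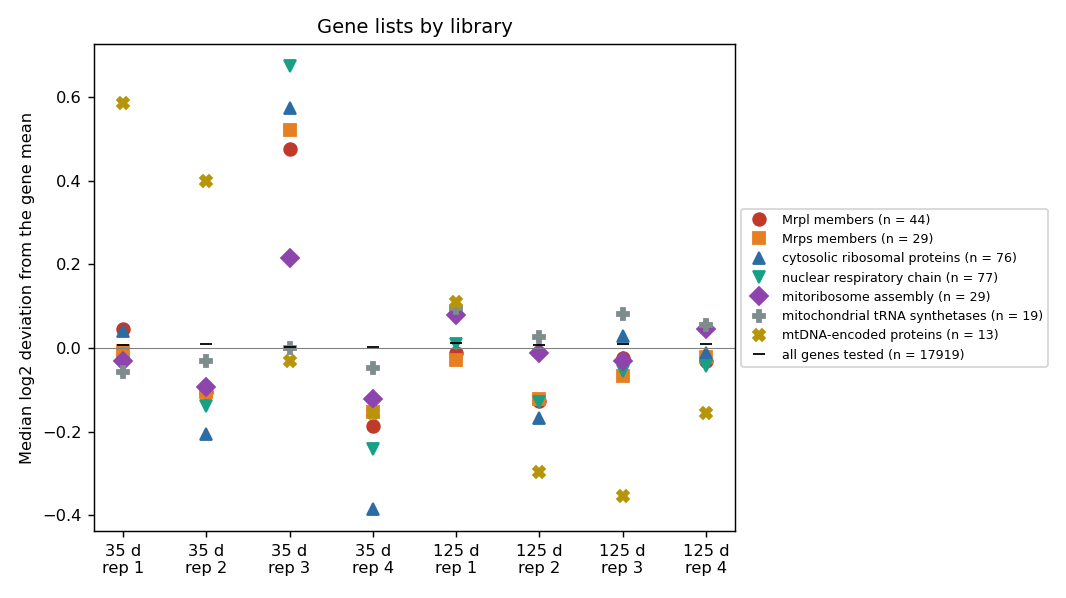
Median log2 deviation from the mean of each gene over the 8 libraries, for the Mrpl members, the Mrps members and other fixed lists, with all genes tested as a dash. In 35-day replicate 3 the Mrpl members, the Mrps members, the cytosolic ribosomal proteins and the nuclear respiratory chain lie between 0.47 and 0.67. The proteins encoded by mitochondrial DNA lie at -0.03.

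The anterior lobe marker level and the member share are given side by side for each library. The summed marker level was 23566 in 35-day replicate 1, 226449 in replicate 2 and 144307 in replicate 4, where the members took 0.200%, 0.187% and 0.187% of reads. In the 125-day libraries it was 6424 to 49907, and the members took 0.185% to 0.188%. The library with the highest marker level was the library with the highest member share, and no other library came near its marker level, so the other 7 do not bear on the members at that level.

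**Figure D5:**
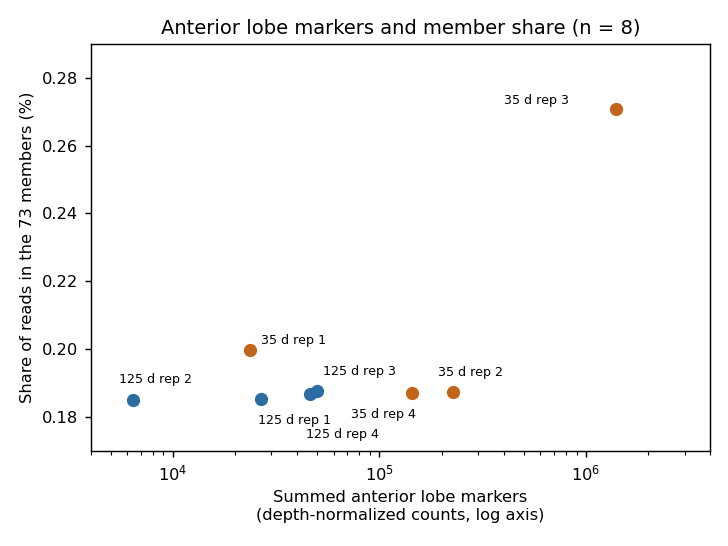
Share of reads in the 73 members (percent) against the summed depth-normalized counts of 8 anterior lobe markers (log axis), 1 point per library. Replicate 3 of 35 days lies at 0.271%, and the other 7 libraries lie between 0.185% and 0.200% at marker sums of 6424 to 226449, far below the 1391592 of replicate 3.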

How the data were processed

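RNA from the neurohypophysis of male rats at 35 and 125 days was read in 4 libraries per age. The submitters' processing notes name Trimmomatic 0.39, HISAT2 2.2.1, SAMtools 1.13, featureCounts, Subread 2.0.1, DESeq2 1.34.0 and the rn7 build. Neither annotation nor strand handling is given in the sources used here, so reads of overlapping or antisense genes cannot be told apart. The deposited values are a depth-normalized signal, each gene's count over a size factor of its library: multiplied back, 100% of values are whole reads (tolerance 0.001 reads). Testing required 10 or more in 4 or more libraries, 17919 of 33294, and 6832 genes were 0 in every library. The test was limma 3.58.1 (R 4.3.3) with a mean trend on log2(value + 1), two-sided, with Benjamini-Hochberg adjustment and a threshold of 0.05; fold changes on this scale understate those of low genes. Recovered reads were tested with edgeR 4.0.16 and DESeq2 1.42.0. No libraries were copies: the variance over genes was 14.4 to 249 times read sampling within an age. Other fits changed the scaling, filter, pseudocount, weights, covariate, replicate block or libraries. Named genes were those called, the 6 highest and 6 lowest changes and the 4 highest and 4 lowest means, and for other lists those called or the lowest adjusted p. The members and lists were chosen with earlier results of these data known. Promoters were matched by symbol to RefSeq windows.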

Additional observations from a re-analysis of the deposited data

Results flagged for a closer look

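Among the 4 libraries of an age, single values stood far from the rest by Dixon's gap ratio at its 95% limit, which chance exceeds in about 1 in 20 groups. At 35 days it was replicate 3 in each case, with Mrpl40 at 722.5, Mrpl52 at 2819 and Mrps34 at 1697 depth-normalized counts and with the members at 0.271% of reads. At 125 days replicate 1 of Mrpl52 was at 1950. Over all 73 members the 35-day group was singled out in 22, which is 30.1% beside 12.3% of all genes tested for any library. It was replicate 3 as the highest in all 22 members, and in 1038 of the 17919 genes tested. The 125-day group was singled out in 4 members, which is 5.48% beside 5%.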

How the results depend on the processing

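With 8 libraries, 0 members were called by limma, and other settings gave 2 with DESeq2, 2 with scaling by total reads (0 higher, 2 lower), 12 with library weights (7 higher, 5 lower, where replicate 3 of 35 days had a weight of 0.1), and 0 to 5 when 1 library was left out. The 5 came without 35-day replicate 3, and without 35-day replicate 4 the count was 2, Mrpl18 and Mrps17. Over all genes the count was 3174 (1585 higher, 1589 lower), 7892 with library weights and 1894 to 5495 without 1 library, and total scaling split it into 1161 higher and 1978 lower while moving the median of all genes to -0.06. The other lists held 5 calls, and 18 with DESeq2, 10 with the anterior lobe covariate, 91 with library weights, 8 with total scaling and 2 to 55 without 1 library. Without 35-day replicate 3 the 5 members became 2 with the covariate, 3 with the replicate block, 9 with total scaling and 2 to 6 without 1 further library. These fits were chosen after seeing the data. Shares of all genes are given above for the covariate and total scaling, and not for the replicate block or the further libraries. The median of the members ran from -0.18 without 35-day replicate 4 to 0.10 with the covariate. The lowest member count in any library was 141, so no member was limited by detection. Within-age deviations of same-numbered libraries had correlations of 0.0439, 0.167, -0.00019 and -0.116, and those of differently numbered ones ran from -0.223 to 0.219. These values cannot settle whether same-numbered libraries were handled together. The replicate block with 8 libraries gave 0 members and 2718 genes.

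Of 378 values of the 18 named members under other settings, 341 kept direction and call, 19 newly passed and 18 turned direction. With the covariate the log2 change became 0.24 in Mrpl17, 0.17 in Mrpl37, 0.41 in Mrpl43, 0.00798 in Mrpl52 and 0.053 in Mrps28. With library weights it became 0.13 in Mrpl17, 0.000608 in Mrpl33, 0.064 in Mrpl37, 0.087 in Mrpl43 and 0.12 in Mrps28. Leaving out 1 library moved Mrpl17 between -0.12 and 0.15, Mrpl37 between -0.14 and 0.063, Mrpl43 between -0.13 and 0.17, Mrpl50 between -0.035 and 0.28, Mrps28 between -0.32 and 0.00386, and Mrps34 between -0.00479 and 0.38. The cause was not tested.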
